A study of Mus musculus with 4 samples.

Results

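The genes examined were 10 members of the cascade by which cortical progenitors make glutamatergic neurons: Pax6, Neurog1, Neurog2, Eomes, Neurod1, Neurod2, Neurod6, Tbr1, Fezf2 and Slc17a6. They were chosen by name, with earlier results of these data known. Comparisons with all genes below are therefore descriptions and not independent support. Each gene was read from the Affymetrix probe sets whose platform annotation gave that symbol and no other. This gave 20 probe sets, 18 on the MOE430A array and 2 on MOE430B, for 10 of the 18193 genes that the arrays name by a single symbol. RNA came from neurospheres, floating cultures of neural stem and progenitor cells, grown from mouse forebrain of E12.5 embryos, with the ventral telencephalon given as the part of the forebrain. The wild-type group was 1 RNA sample, and the other group was 1 RNA sample labelled as knockout of E2f4, a transcription factor of the E2F family known for its part in cell-cycle gene repression. The labels give no strain, knockout allele, passage or number of pooled embryos, and no treatment of either group. Each RNA was hybridised to both array designs, so there were 4 arrays and no replicates of a genotype. Hence no p-value and no error between samples can be given, and each difference is one between these 2 samples. The stated aim of the study was to find signalling pathways affected by loss of E2f4 in neural stem cells.

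In the developing cortex, radial glial progenitors that carry Pax6 switch on the proneural factors Neurog1 and Neurog2. These basic helix-loop-helix proteins bind short DNA words called E-boxes and start neuronal differentiation. Intermediate progenitors then carry Eomes, and the later factors Neurod1, Neurod2, Neurod6 and Tbr1 follow as cells leave the cycle and mature. Fezf2 directs deep-layer projection neurons, and Slc17a6 encodes VGLUT2, a transporter that loads glutamate into synaptic vesicles. The ventral telencephalon uses another set of factors, among them the Dlx genes, and makes mainly GABAergic neurons.

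The genes of the cortical cascade were higher in the knockout neurospheres with 1 exception. Of the 10 genes, 9 had at least 1 probe set above the floor in both samples. The floor was the median signal of an array design, 736 on MOE430A and 942 on MOE430B, and a probe set at or above it in both samples is called measured. Of these 9 genes, 8 had a higher signal in the knockout neurospheres and Neurod1 had a lower one. By comparison, 49.8% of the 10171 measured genes of both designs were higher. Their median log2 ratio (knockout over wild type) was 0.52, a 1.43-fold difference, and -0.001 over all measured genes. The 8 higher genes lay close together, all between 0.44 and 0.69.

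The individual differences were modest. At least 1.5-fold higher were 2 of the 9 genes, Eomes and Fezf2, where 3.51% of all measured genes were, and 1.95% of the 6449 measured on MOE430A alone. Tbr1 and Neurod2 lay just short of that fold. None of the 9 was at least 1.5-fold lower, where 3.86% of all measured genes were, and none differed by 2-fold in either direction, where 1.01% did. The central 95% of all measured genes ran from -0.67 to 0.64, and Eomes alone of the 9 lay outside it. On MOE430A alone the upper end of the central 95% was lower, at 0.55, and Eomes, Fezf2, Tbr1 and Neurod2 lay above it there, the last at 0.57. On MOE430B it was 0.80, with Neurod2 below it at 0.59. The pooled SD between probe sets of 1 gene was 0.33 on the log2 scale, and 99 probe sets measured on both designs differed between designs with an SD of 0.31. These SDs describe readings of the same 2 RNAs and say nothing of the variation between cultures.

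**Figure D1:**
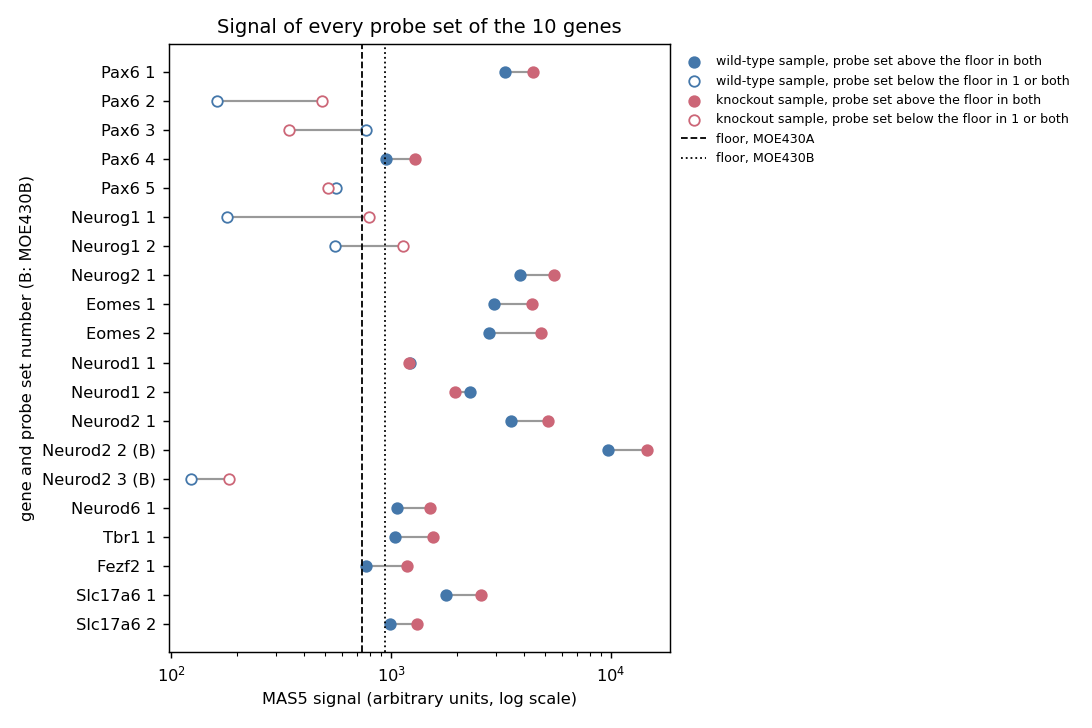
MAS5 signal on a log axis (x) of each of the 20 probe sets of the 10 genes (y), with the wild-type neurospheres in blue and the knockout neurospheres in red. Open circles mark probe sets that did not reach the floor in both samples, and the dashed and dotted lines are the floors of MOE430A and MOE430B. The red point lies to the right of the blue one in 16 of the 20 probe sets.

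Among the progenitor factors, Pax6 was represented by 5 probe sets that did not go the same way. Pax6 is a paired-domain and homeodomain factor of radial glia. Its brightest probe set, 1419271_at, read 3277 in the wild-type neurospheres and 4409 in the knockout neurospheres, and 1452526_a_at read 943 and 1284. These 2 measured probe sets had log2 ratios of 0.43 and 0.45 and gave the gene its value of 0.44. The other 3 were dim. One, 1437816_at, passed the floor in the wild-type neurospheres alone, with 770 against 342, while 1425960_s_at read 161 against 487 and 1456342_at read 564 against 516, both below the floor. With a lower floor, at the 30th percentile of signals, 4 probe sets were measured and the mean turned to -0.11, so the direction of Pax6 rests on its 2 brighter probe sets.

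Neurog1 and Neurog2, the proneural factors that commit progenitors to the glutamatergic lineage, were both brighter in the knockout neurospheres. The 1 probe set of Neurog2 read 3861 in the wild-type neurospheres and 5514 in the knockout neurospheres, a log2 ratio of 0.52. Neurog1 was below the floor in the wild-type neurospheres on both of its probe sets and above it in the knockout neurospheres on both. Probe set 1450836_at read 558 and 1130, and 1438551_at read 179 and 797. Set against the floor, the first was at least 1.54-fold higher and the second at least 1.09-fold higher in the knockout neurospheres. Of the 18193 genes, 0.192% likewise had no measured probe set and 2 or more that were above the floor in the knockout neurospheres alone. Those 18193 include genes with 1 probe set, which cannot meet this, so the share among genes with 2 or more is higher.

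Eomes, also called Tbr2, the T-box factor of intermediate progenitors, had the largest ratio of the 9 measured genes at 0.69. Probe set 1426001_at read 2936 in the wild-type neurospheres and 4369 in the knockout neurospheres, and 1435172_at read 2776 and 4804. Their log2 ratios were 0.58 and 0.79. Of all measured genes, 219 had a higher ratio than Eomes. Across the 5 genes with exactly 2 measured probe sets, both probe sets lay on the same side of 0 in 5 of 5, as they did in 52.6% of the 2494 such genes on the arrays. Both lay above 0 in 4 of the 5, against 26.9% of those 2494 genes. The first count takes Neurod1 as one-sided although 1 of its probe sets was at -0.01. Both counts leave out the dim Pax6 probe sets, which differed in direction.

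The Neurod genes, which drive differentiation downstream of the proneural factors, differed among themselves. Neurod2 was read by measured probe sets on both designs, which are different probes hybridised on different days. On MOE430A its signals were 3501 in the wild-type neurospheres and 5185 in the knockout neurospheres, and on MOE430B they were 9669 and 14543. The log2 ratios were 0.57 and 0.59, so the designs gave nearly the same value. A further Neurod2 probe set was far below the floor, at 123 and 182. Neurod6, a related factor of differentiating cortical neurons, read 1064 and 1506, a ratio of 0.50. Neurod1 stood apart: its probe sets read 1215 and 1208, and 2293 and 1949, with ratios of -0.01 and -0.23 and a mean of -0.12. This lies inside the central 50% of measured genes, which ran from -0.19 to 0.18. With 1 RNA sample per genotype, neither Neurod1 nor any other gene here is shown to differ from 0.

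The genes of postmitotic identity and transmitter were higher by similar amounts. Tbr1, a T-box factor of early-born cortical neurons, read 1041 in the wild-type neurospheres and 1557 in the knockout neurospheres, a log2 ratio of 0.58. Fezf2, a zinc-finger factor of corticofugal neurons, read 765 and 1186, a ratio of 0.64, and its wild-type signal was only just above the floor. Each of these genes had 1 probe set, so nothing on the arrays checks their values. Slc17a6 was read by 2 probe sets, at 1777 and 2559, and at 986 and 1304, with ratios of 0.53 and 0.41 and a mean of 0.47. More cells of a type and more RNA per cell cannot be told apart in such bulk RNA.

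**Figure D2:**
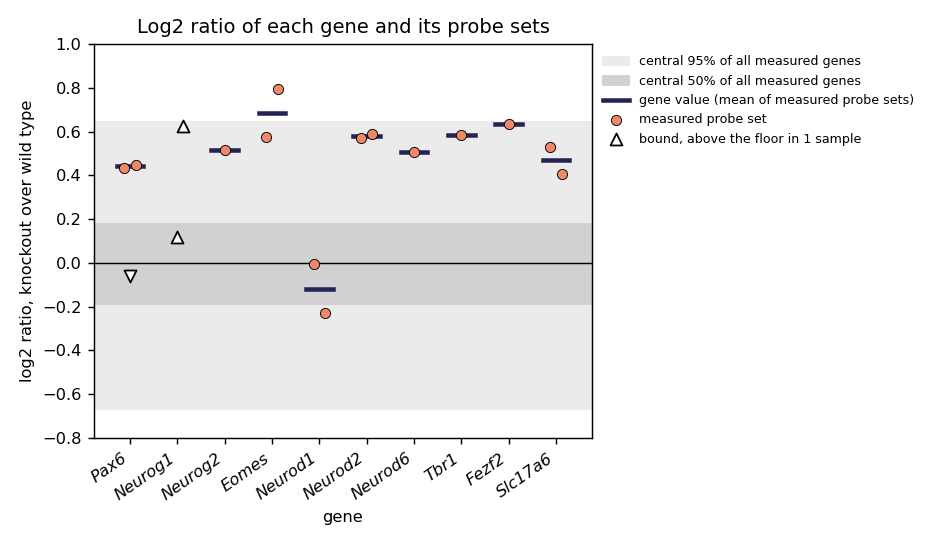
Log2 ratio of knockout over wild type (y) for each of the 10 genes (x), with orange points for measured probe sets, bars for the gene value and open triangles for bounds from probe sets above the floor in 1 sample. Light and dark grey bands hold the central 95% and 50% of all measured genes. The bars of 8 genes lie between 0.44 and 0.69, Neurod1 lies at -0.12, and Neurog1 has bounds only.

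**Figure D3:**
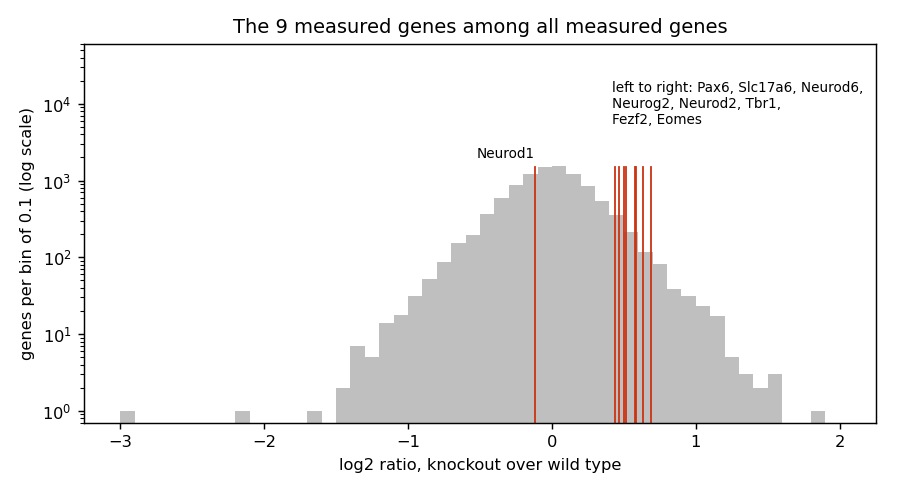
Number of measured genes per bin of 0.1 (y, log scale) against the knockout over wild-type log2 ratio (x) for all 10171 measured genes. Red lines mark the 9 measured genes of the cascade, of which 8 lie in the upper shoulder of the distribution and Neurod1 near its centre.

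Promoter sequences are shown for 4 genes that were higher in the knockout neurospheres, since bHLH members of the cascade act through E-boxes. Each is the 250 bases before an annotated start in RefSeq, build GRCm38.p6, printed 5′ to 3′ on the gene's strand, and capitals mark every E-box of the form CANNTG. The Neurod2 window is chr11:98329646-98329895 on the minus strand, and the Slc17a6 window, of the second of its 2 annotated starts, is chr7:51624387-51624636 on the plus strand. The Neurog2 window is chr3:127632886-127633135 and the Eomes window chr9:118477939-118478188, both on the plus strand.
Neurod2: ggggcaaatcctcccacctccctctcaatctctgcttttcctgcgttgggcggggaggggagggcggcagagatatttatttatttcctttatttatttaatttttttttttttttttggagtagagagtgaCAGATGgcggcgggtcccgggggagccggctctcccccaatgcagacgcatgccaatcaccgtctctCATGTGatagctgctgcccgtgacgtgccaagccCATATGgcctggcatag
Slc17a6: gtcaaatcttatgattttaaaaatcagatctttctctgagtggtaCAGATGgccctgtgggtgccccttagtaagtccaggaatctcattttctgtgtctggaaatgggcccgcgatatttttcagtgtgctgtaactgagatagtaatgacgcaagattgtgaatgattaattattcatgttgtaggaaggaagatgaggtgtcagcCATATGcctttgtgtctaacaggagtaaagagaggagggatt
Neurog2: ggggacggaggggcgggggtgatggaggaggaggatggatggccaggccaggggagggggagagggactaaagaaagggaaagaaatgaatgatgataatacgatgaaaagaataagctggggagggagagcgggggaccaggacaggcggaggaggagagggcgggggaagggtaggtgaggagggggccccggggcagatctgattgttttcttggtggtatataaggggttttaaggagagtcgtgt
Eomes: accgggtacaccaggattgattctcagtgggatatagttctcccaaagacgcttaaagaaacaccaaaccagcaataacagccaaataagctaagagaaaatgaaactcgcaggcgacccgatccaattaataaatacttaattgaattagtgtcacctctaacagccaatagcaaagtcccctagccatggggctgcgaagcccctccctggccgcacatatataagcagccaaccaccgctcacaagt

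All 10 genes matched the promoter table by symbol, with 12 windows, since Pax6 and Slc17a6 have 2 starts each. An E-box of any kind was present in 7 of the 12 windows, against 66.2% of all 32851 windows of this length. The form CAGATG, one that Neurog and Neurod proteins are known to bind, was present in the Neurod2 window, 118 bases before the start, and in the Slc17a6 window above, 205 bases before it. It was found in 14.4% of all windows on either strand. The form CAGCTG was in none of the 12 and in 13.0% of all windows, and both forms are themselves counted among the E-boxes. The T-box core AGGTGT, searched on both strands, was in the windows of Neurod6 and Slc17a6 and in 11.8% of all. An E2F site, searched on both strands as TTTGGCGC, TTTCGCGC or TTTCCCGC, was in none of the 12 windows and in 1.53% of all. At so small a share, finding none in 12 windows says nothing about E2F factors at these genes. These matches are descriptions of the letters and do not show binding.

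Other genes of the same programme came from lists made by role, with earlier results of these data known. The proneural target and cortical projection neuron lists did not move with the 10 as a whole. The median of the cortical patterning list was higher, at 0.21. Of 13 proneural target and intermediate progenitor genes, 12 were measured, 7 higher and 5 lower, with a median log2 ratio of 0.05. None differed by 1.5-fold. The farthest from 0 were Nhlh2, a bHLH factor of young neurons, at -0.58, its relative Nhlh1 at 0.27, and Ebf3 at 0.24. Dll1, the Notch ligand that Neurog2 is known to induce, was at 0.06. Rnd2, a small GTPase of migrating cortical neurons and a known Neurog2 target, was at 0.23. Dll1 and Rnd2 were named after their values were seen.

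Of 18 cortical projection neuron genes, 16 were matched and 15 measured, 8 higher and 7 lower, with a median of 0.05. None differed by 1.5-fold either. The farthest from 0 were Cux2, of upper-layer neurons, at 0.36, Foxp1 at -0.35 from probe sets between -1.32 and 0.10, and Lmo4 at -0.26. For Foxp1, 2 further probe sets passed the floor in the knockout neurospheres alone, with log2 bounds of 0.07 and 0.76. The sign of this median changed with the floor and the choice of probe sets, so the list has no settled direction. Glutamate supply genes had 1 measured member, Slc17a7 or VGLUT1, with signals of 1360 and 1729 and a ratio of 0.35.

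Genes that pattern cortical progenitors were 4 higher and 3 lower of 7 measured, with a median of 0.21. Dmrta2, a doublesex-related factor of the dorsal midline and cortex, was the 1 gene of this list past 1.5-fold, with 8664 in the wild-type neurospheres and 16234 in the knockout neurospheres and a ratio of 0.91 from 1 probe set. Otx1, a homeobox factor of the cortex, was above the floor in the knockout neurospheres alone, with 490 against 3071, which is at least 3.26-fold higher. Emx1, Dmrt3 and Nr2f1 were lower, at -0.14, -0.16 and -0.39, and were named after their values were seen. Named likewise were Lhx2, Emx2 and Gli3, which were higher, at 0.36, 0.31 and 0.21. Both Emx1 and Dmrt3 had a further probe set that passed the floor in the knockout neurospheres alone and pointed the other way. It read 219 and 1224 for Emx1, a log2 bound of 0.38, and 757 and 1410 for Dmrt3, a log2 bound of 0.58.

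**Figure D4:**
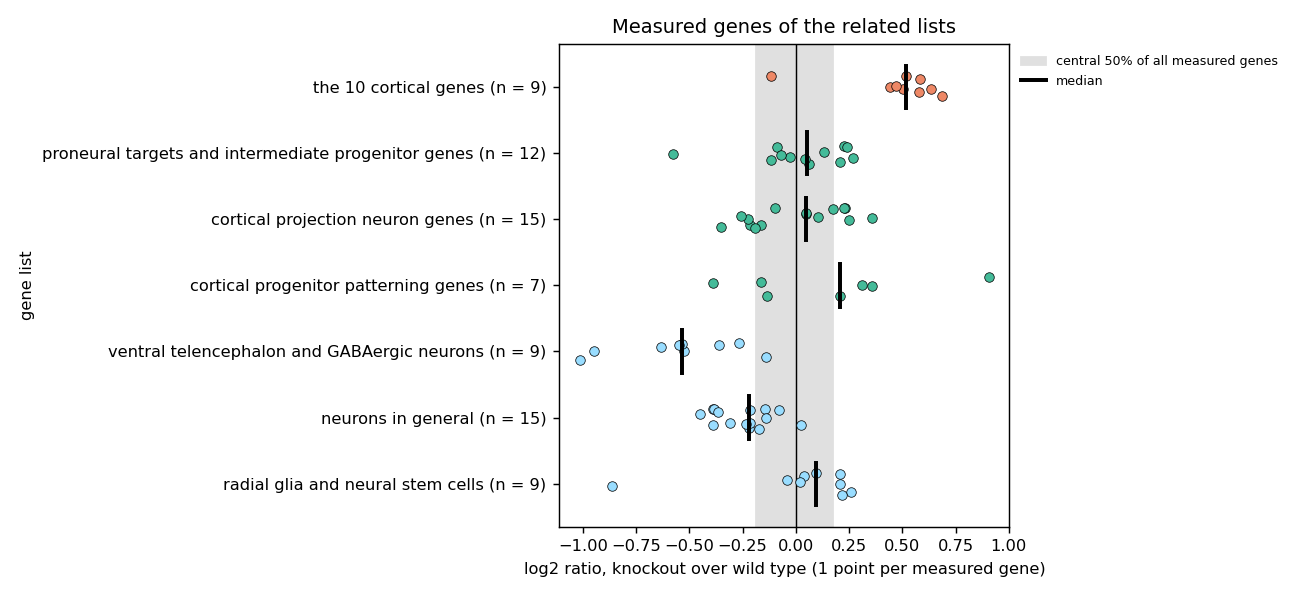
Log2 ratio of knockout over wild type (x), with 1 point for each measured gene, in 7 gene lists (y), where points are spread vertically for legibility only, black bars are medians and the grey band holds the central 50% of all measured genes. The cascade has a median of 0.52, the pathway lists in green have medians from 0.05 to 0.21, and the ventral and general neuronal lists in pale blue have medians of -0.53 and -0.22.

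Markers of other cells differed between the samples too, and their part in the results above was not tested. Among all measured genes, 49.8% were higher. Ventral telencephalon and GABAergic genes were lower in 9 of 9 measured of 12 matched, with a median of -0.53. Their summed signal was 39866 in the wild-type neurospheres and 25891 in the knockout neurospheres. Lhx8 was at -1.02, Dlx5 at -0.95 and Gad2 at -0.63, and Lhx6 and Gsx1, above the floor in the wild-type neurospheres alone, were at least 3.63-fold and 1.37-fold lower. The ventral genes above the floor in both samples numbered 9, beside the cortical genes. Nkx2-1 was among them at 1026 and 796, where the floor was 736, and Dlx6 was below it in both. Of the 18193 genes named by a single symbol, 10171 were measured, so this count alone does not establish the labelled ventral origin. Genes of neurons in general were lower in 14 of 15, with a median of -0.22, summed signals of 292162 and 245830, and Nefl, Map2 and Stmn3 farthest from 0 at -0.45, -0.39 and -0.39. The median of the cascade was above 0 and that of this list below it. The list does not separate glutamatergic from other neurons, and how the 2 are related was not tested.

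Radial glia genes were higher in 7 of 9, with a median of 0.09 and summed signals of 143601 and 153183. Hes5, a Notch target, was the 1 past 1.5-fold, at -0.86 from probe sets at -1.48 and -0.24. Cajal-Retzius cells are early cortical neurons that also carry Tbr1, and 3 of their 6 markers were measured: Calb2 at 0.37, Reln at 0.21 and Ndnf at -0.37. Trp73 was above the floor in the knockout neurospheres alone, at least 1.13-fold higher, and Lhx1 and Lhx5 were below it in both. Summed signals of this list were 13724 and 15141. For other brain regions, which use Slc17a6 and some Neurog and Neurod genes, 5 of 8 matched markers were below the floor in both samples, among them En1, En2, Gbx2, Hoxa2 and Hoxb2. The 3 measured were Tcf7l2 at 0.59, Pax5 at 0.16 and Lhx9 at 0.10, and the list summed to 11250 and 12722. Only 10171 of the 18193 genes named by a single symbol were measured, so markers below the floor do not show absence of these regions.

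Red blood cell genes were lower in 3 of 3 measured, with Hbb-bh1 at -0.88 and summed signals of 279129 and 214868. Microglial genes were lower in 2 of 2, with Laptm5 at -0.63 and 3 markers below the floor. With 49.8% of all measured genes higher, counts of 2 or 3 genes on 1 side of 0 show little about these cells. The value of Laptm5 came from 1 probe set, and another that passed the floor in the knockout neurospheres alone, with 883 and 1178, pointed the other way. Endothelial genes were mixed, with Kdr at 0.38, Cldn5 at 0.15 and Egfl7 at -0.39, and Flt1, above the floor in the knockout neurospheres alone, at least 2.37-fold higher. That bound rests on 1 of the 4 Flt1 probe sets, and the others were below the floor in both and differed in direction. Of the meningeal list, Col1a2 was at 0.10, Dcn passed the floor in the wild-type neurospheres alone, at least 1.31-fold lower, and 5 of 7 were below it in both. The other Dcn probe set, below the floor in both, read 114 and 276 and pointed the other way. Among all 18193 genes only 10171 were measured, so the counts of markers below the floor do not show that a cell type was absent. Xist, the RNA of the inactive X chromosome, was 7.60-fold lower in the knockout neurospheres on its 1 measured probe set. The cultures thus also differed in a transcript of female cells. Its other probe sets pointed the same way. They read 1817 and 47, above the floor in the wild-type neurospheres alone, and 225 and 42, below it in both. Kdm5d, Y-linked, passed the floor in the wild-type neurospheres alone by 1.07-fold on 1 probe set, with 786 and 697. Its other probe sets, below the floor in both, read 466 and 690, and 120 and 131, and pointed the other way. The 2 other Y-linked genes, Eif2s3y and Uty, were below the floor in both. Eif2s3y read 111 and 343, and 131 and 524. Uty read 633 and 639, 223 and 281, and 145 and 221, but 111 and 86 on a further probe set. Whether the cultures differed in sex was not tested.

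The arrays were evenly scaled, with median signals of 735 (wild type) and 736 (knockout) on MOE430A and 941 and 942 on MOE430B. Gapdh probe sets at the 3′ end over those at the 5′ end, which report on RNA integrity, gave 0.862 and 0.898 on MOE430A, where 18 of the 20 probe sets of the cascade lie, and 0.948 and 0.799 on MOE430B. E2f4 itself read 1812 in the wild-type neurospheres and 1535 in the sample labelled knockout on its 1 probe set. Whether those probes lie within the deleted exons is unknown here, so the value is no check of the label.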

How the data were processed

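The deposited values are MAS5 signal values per probe set on a linear scale, and the submitters' processing notes name MAS5 without a version. The values themselves show that the authors scaled each array to a mean of about 1500 after trimming 2% at each end. Detection calls, background settings and software versions are not given in the sources used here. Both arrays of each design shared a hybridisation day, per the file headers of the scanner's records, and MOE430A and MOE430B had separate days, so every comparison lies within a day.

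Control probe sets, 64 on each design, were left out. Log2 ratios (knockout over wild type) were centred on the median of a design's measured probe sets, which moved MOE430A by -0.003 and MOE430B by -0.001. Measured probe sets were averaged per gene, and a probe set above the floor in 1 sample gave a bound, the brighter signal over the floor. On MOE430A 10399 of 22626 probe sets were measured, and 9528 of 22511 on the other design. Probe sets with several symbols (691 and 245) or none (1555 and 7605) named no gene. Of 136 symbols of the 10 genes and the 14 lists, 125 were matched, all with their identifier in a RefSeq table of GRCm38.p6, and none changed.

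With 1 sample per genotype no test was made, and precision is limited by how few arrays there were. A call is a fold of at least 1.5 or 2. The members and lists were chosen with earlier results of these data known. All 10 members were named, and of each other list the genes at least 1.5-fold different, or else the 3 farthest from 0, and any with bounds only. The procedure was tested on simulated arrays with planted changes of 2-fold and noise smaller than the spread between probe sets given above. The measured genes of the cascade differed by less than 2-fold, so that test does not cover differences of their size. The closing section lists the alternatives. Scripts ran in Python 3.11.15 with pandas 2.3.3 and numpy 2.4.6 for the ratios, statsmodels 0.14.6 for lowess, scipy 1.17.1 for trimmed means, and matplotlib 3.10.9.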

Additional observations from a re-analysis of the deposited data

How the results depend on the processing

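Floors at the 30th and 70th percentile and no floor at all were tried, as were adding the floor to every signal as a pseudocount, leaving the ratios uncentred, quantile normalization, lowess (span 0.3), taking only a gene's brightest probe set, dropping probe sets ending in _x_at, _s_at and _a_at, and MOE430A or MOE430B by itself. No paired analysis was possible because each genotype had 1 RNA sample. The median of the 10 genes was above 0 under all 11, from 0.36 with the pseudocount, which pulls dim genes towards 0 by construction, to 0.59 on MOE430B alone, where Neurod2 was the 1 gene measured. With the 70th percentile floor 6 genes were measured, without Fezf2, Neurod6, Tbr1 and Neurog1, and 5 of them were higher. At least 1.5-fold higher were 2 genes as reported, 1 with the 70th percentile floor, with the pseudocount and on MOE430B alone, and 3 with the 30th percentile floor, no floor, lowess and the brightest probe set. Neurod1 was below 0 in its 10 alternatives, from -0.23 to -0.09. Pax6 was at -0.11 with the 30th percentile floor and at 0.10 with the pseudocount, and above 0.2 in its 8 others. Neurog1 was measured at 1.02, 1.58 and 0.63 with the 30th percentile floor, no floor and the pseudocount. The other 7 measured genes kept their sign wherever they were measured.

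The median of the cortical projection neuron list, 0.05 as reported, was -0.079 and -0.11 with the 30th and 70th percentile floors, -0.10 with no floor, -0.062 with the pseudocount, -0.12 with the brightest probe set and -0.037 on MOE430A alone. The proneural target list was at -0.15 on MOE430B alone, from 2 genes, and the patterning list at 0.33 with no floor. Signal over background limits Neurog1, Fezf2 and the dim Pax6 probe sets most.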
